A study of Mus musculus with 4 samples.

Results

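The C-type lectin receptor genes Clec4a1, Clec4a2, Clec4a3, Clec4b1, Clec4d, Clec4e, Clec4n, Clec7a and Clec12a lie on mouse chromosome 6, and chromatin accessibility at these 9 genes was measured by ATAC-seq in large peritoneal macrophages (LPMs). ATAC-seq uses the Tn5 transposase to cut and tag open DNA, and a peak is a stretch with more tags than its local background. Overlapping peaks of the 4 libraries (1 bp or more) were joined, which gave 70744 regions. A region was assigned to 1 of the 9 genes if that gene had the transcription start site (TSS) nearest to the midpoint of the region, or if the region overlapped the body of the gene. This gave 26 regions. Each is named here by its gene and by the distance of its midpoint from that TSS in kb, or as TSS where it covers an annotated start. The libraries came from C57BL/6 mice 9 weeks old, with 40000 sorted LPMs in each. All mice carried loxP-flanked alleles of both Rxra and Rxrb, the genes of the retinoid X receptors RXRα and RXRβ. The 2 Rxrab fl/fl libraries (replicates 1 and 3) lacked Cre. The 2 LysMCre+ Rxrab fl/fl libraries (replicates 1 and 2) carried a Cre driven by the lysozyme M gene (Lyz2), which deletes floxed alleles in myeloid cells, so that cells other than myeloid cells keep both receptors. These libraries are called control and Cre+ below. No source says whether the libraries of a genotype came from separate mice, and p-values therefore measure only the spread between these samples.

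C-type lectin receptors are membrane proteins with which macrophages and dendritic cells recognise sugars and lipids of fungi, bacteria and damaged cells. Mincle (Clec4e), MCL (Clec4d), Dectin-2 (Clec4n) and DCAR (Clec4b1) signal through the adaptor Fcer1g, and Dectin-1 (Clec7a), the receptor for fungal β-glucan, recruits the kinase Syk through its own cytoplasmic tail. DCIR (Clec4a2) and MICL (Clec12a) carry inhibitory motifs that recruit the phosphatases Ptpn6 and Ptpn11, and Clec4a1 and Clec4a3 are paralogues of Clec4a2.

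The 7 Clec4 genes occupied 368 kb (chr6:122921848-123289871, mm10) with 17 of the 26 regions, and Clec12a and Clec7a occupied a second stretch of 122.5 kb (chr6:129350244-129472785) with 9 regions. The sequence at the summits, the position of highest tag density, was shared between several of the regions. Windows reaching 100 bp to either side of the strongest summit of each region were compared by local alignment in all 325 pairs. The median pair aligned over 13 columns, and 3 pairs aligned over more than 100. Those 3 pairs joined the TSS regions of Clec4b1 and Clec4n with the Clec4a2 -27.2 kb region, which lies upstream of Clec4a2 between genes, 23.7 kb past the end of Clec4b1. The Clec4a2 -27.2 kb window was identical to the Clec4b1 window at 152 of 186 aligned columns (81.7%) and to the Clec4n window at 143 of 183 (78.1%). The Clec4b1 and Clec4n windows were identical at 154 of 201 columns (76.6%). The windows are printed on the plus strand of GRCm38.p6, without annotated exon, because these regions are set side by side again with their accessibility. Capitals mark bases identical to the Clec4a2 -27.2 kb window in the first line, and to the Clec4b1 window in the other lines. They lie at chr6:123049820-123049961, chr6:123095202-123095402 and chr6:123229738-123229842.
Clec4b1 TSS: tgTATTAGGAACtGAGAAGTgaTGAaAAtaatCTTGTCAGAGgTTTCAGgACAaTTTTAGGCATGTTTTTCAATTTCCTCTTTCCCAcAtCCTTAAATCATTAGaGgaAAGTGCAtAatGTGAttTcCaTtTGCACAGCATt
Clec4a2 -27.2 kb: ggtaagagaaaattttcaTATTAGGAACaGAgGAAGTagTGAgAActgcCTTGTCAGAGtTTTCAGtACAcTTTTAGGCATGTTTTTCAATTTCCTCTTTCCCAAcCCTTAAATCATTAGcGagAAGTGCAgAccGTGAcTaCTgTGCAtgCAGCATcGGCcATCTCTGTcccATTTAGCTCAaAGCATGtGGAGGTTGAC
Clec4n TSS: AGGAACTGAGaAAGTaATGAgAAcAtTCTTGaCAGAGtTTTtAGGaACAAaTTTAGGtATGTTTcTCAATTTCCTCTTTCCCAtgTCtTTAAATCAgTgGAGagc

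The windows of Clec4d, Clec4n and Clec12a below are shown for the motif letters they hold. Patterns were searched on both strands, PU.1 as GAGGAAGT, AP-1 as TGANTCA, C/EBP as TTGCNNAA, GATA as AGATAA or TGATAA, and NF-kB by its degenerate consensus, which is given by name only, and matches are in capitals. They lie at chr6:123252897-123253097, chr6:123260358-123260558, chr6:123266039-123266239, chr6:123227657-123227857 and chr6:129363364-129363564, in the order printed.
Clec4d -9.1 kb (AP-1 and C/EBP): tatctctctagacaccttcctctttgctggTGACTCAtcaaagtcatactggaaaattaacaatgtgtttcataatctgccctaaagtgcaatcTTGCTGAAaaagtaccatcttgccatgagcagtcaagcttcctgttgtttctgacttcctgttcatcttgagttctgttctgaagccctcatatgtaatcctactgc
Clec4d -1.7 kb (GATA): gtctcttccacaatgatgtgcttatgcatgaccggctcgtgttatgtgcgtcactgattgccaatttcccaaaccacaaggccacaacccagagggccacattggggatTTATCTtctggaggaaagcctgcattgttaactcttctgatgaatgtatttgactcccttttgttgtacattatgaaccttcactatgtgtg
Clec4d +4.0 kb (AP-1 and GATA): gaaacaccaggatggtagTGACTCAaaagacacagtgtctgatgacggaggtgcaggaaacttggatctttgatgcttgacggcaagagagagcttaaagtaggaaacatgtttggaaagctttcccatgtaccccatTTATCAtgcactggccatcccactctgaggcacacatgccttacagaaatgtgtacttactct
Clec4n -2.1 kb (PU.1): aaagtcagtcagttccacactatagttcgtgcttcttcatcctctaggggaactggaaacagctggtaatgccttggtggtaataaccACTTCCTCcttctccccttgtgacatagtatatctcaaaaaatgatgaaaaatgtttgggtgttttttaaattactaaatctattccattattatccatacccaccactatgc
Clec12a +13.2 kb (AP-1 and C/EBP): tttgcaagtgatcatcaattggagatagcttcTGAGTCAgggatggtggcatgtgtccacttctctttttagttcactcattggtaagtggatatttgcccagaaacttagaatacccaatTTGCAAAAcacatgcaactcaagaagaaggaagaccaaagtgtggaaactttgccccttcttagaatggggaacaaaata

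Over the 26 windows, the C/EBP letters were found in 7 (26.9%), against 11.1% of the windows of all regions. Among the 7, Clec4a3 -7.4 kb and Clec7a +1.2 kb were called in 1 library each. The windows of Clec4a3 -7.4 kb and Clec12a +13.2 kb aligned over 39 columns with 89.7% identity, beside the C/EBP letters, so the 7 windows are not all unrelated in sequence. AP-1 was found in 4 windows (15.4% against 12.7%), GATA in 3 (11.5% against 10.6%), PU.1 in 2 (7.69% against 9.3%) and NF-kB in 1 (3.85% against 3.38%). The GATA letters at Clec4d -1.7 kb stood 11 bp from the summit, the PU.1 letters at Clec4n -2.1 kb 9 bp from it, and the C/EBP letters at the Clec4e TSS 2 bp from it. A match is a description and no proof of binding, and these shares were not tested. The median GC content of the windows was 43% for the 9 genes and 51.7% for all regions.

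Peaks were called in each library separately, and the libraries differed in the number of peaks. Control replicates 1 and 3 held 38048 and 16097 peaks, and Cre+ replicates 1 and 2 held 65421 and 55581, so control replicate 3 stood apart within its own genotype. Read totals were not analysed here. Over the regions called in all 4 libraries, the median tag pileup at the summit was 97, 20, 99 and 65, in the same order. Of the 9 promoters of LPM and macrophage marker genes, 7, 6, 9 and 9 had a peak. Gata6, Timd4, Icam2, Adgre1, Lyz2 and Spi1 had one in all 4 libraries, and Selp in all but control replicate 3. Csf1r and Itgam had one only in the Cre+ libraries, with a fold enrichment of 3.11 and 2.89, and of 6.06 and 8.68. The mast cell (3 genes) and mesothelial cell (4 genes) lists had no promoter peak in any library, Ebf1 was the only B cell gene with one and Cd2 the only T cell gene. The small peritoneal macrophage list had promoter peaks at 2, 1, 5 and 5 of 6 genes, the dendritic cell list at 2, 1, 2 and 2 of 4, and the neutrophil list at 1, 0, 2 and 1 of 5. At the targeted genes, the Rxra promoter had a fold enrichment of 6.43, 5.77, 10.4 and 7.27 and the Rxrb promoter of 8.36, 5.71, 7.17 and 4.79. The deleted exons are not given in the labels, so these promoters do not check the genotype.

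All 9 genes had at least 1 accessible region, and 8 had a peak at an annotated TSS in at least 1 library. Clec4d was the exception, with 3 regions of which none lay at its start. By library, 7 and 4 of the 9 genes had a promoter peak in control replicates 1 and 3. In Cre+ replicates 1 and 2, 8 and 8 had one. The share of all genes with such a peak was not computed. Of the 26 regions, 15 had a peak in control replicate 1, 8 in replicate 3, 23 in Cre+ replicate 1 and 23 in replicate 2. These are 57.7%, 30.8%, 88.5% and 88.5% of the 26, beside 52%, 21.9%, 90.7% and 77.2% of all regions. Of these regions, 8 (30.8%) were called in all 4 libraries, where 21.5% of all regions were. A further 7 (26.9%) were called in all but control replicate 3, beside 25.5%, and 5 (19.2%) in both Cre+ libraries and neither control library, beside 22.8%. No region showed the reverse, which held for 32 of all regions (0.0452%). The remaining 6 regions (23.1%) were called in 1 Cre+ library each, where 26.9% of all regions were called in 1 library. Among these patterns the gap to the whole set was widest for regions called in all 4 libraries. The map of peaks shows the calls along both stretches.

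**Figure D1:**
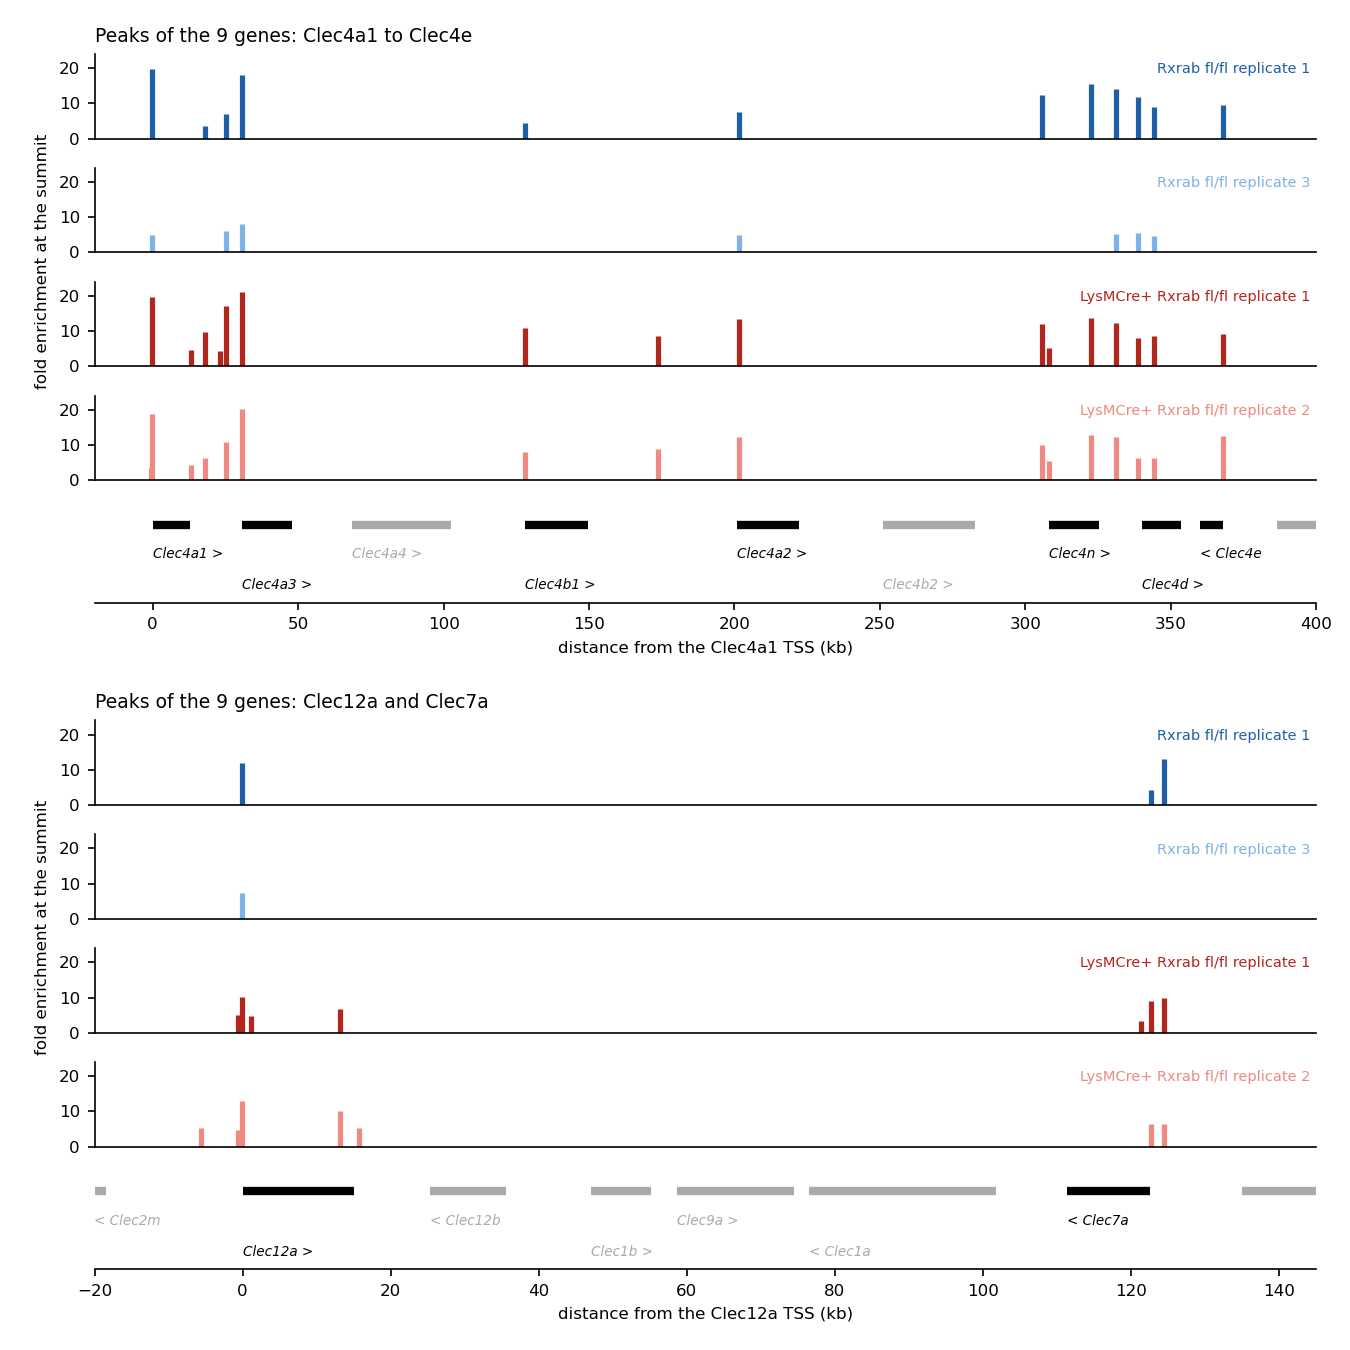
Peaks of the 9 genes along chromosome 6, in kb from the Clec4a1 TSS (upper map) and from the Clec12a TSS (lower map). Each bar stands at the midpoint of 1 of the 26 regions and its height is the fold enrichment at the summit in that library, with no bar where no peak was called; genes are drawn below, the 9 genes in black and others in grey. Control (Rxrab fl/fl) replicate 3 had bars at 8 regions and each Cre+ (LysMCre+ Rxrab fl/fl) library at 23.

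The pattern changed when the number of peaks was made equal. When the 16097 peaks of lowest q value were taken from each library, 12 regions of the 9 genes were left. Control replicates 1 and 3 then held 8 each, and Cre+ replicates 1 and 2 held 3 and 4. The TSS regions of Clec4a1 and Clec4a3 were in all 4 libraries, which held for 46.1% of all regions so merged. No region was called in both Cre+ libraries alone (7.82% of all regions), and 3 were called in both control libraries alone (7.22%). Those 3 were the regions of Clec4d. When control replicate 3 was left out and 38048 peaks were taken from each of the other 3 libraries, a choice made after seeing the data, 15 of 17 regions were in all 3 libraries, Clec4d included, as were 58% of all regions so merged. The other 2, Clec4a2 -27.2 kb and Clec12a +13.2 kb, were in Cre+ replicate 2 only. None was then called in one genotype alone in every library, beside 9.7% of all regions for the Cre+ libraries and 10.5% for the control.

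Fold enrichment compares the tags at the summit with the local background of the same library. At the 8 regions called in all 4 libraries it was compared between genotypes by limma, on the log2 scale after each library was centred on its own median, over the 15199 regions of that kind. A region was called different at a Benjamini-Hochberg adjusted p under 0.05 and an absolute log2 difference over 1. None of the 8 was called in either direction, where 6 of all regions (0.0395%) were called higher in the Cre+ libraries and 7 (0.0461%) lower, and 3345 had an unadjusted p under 0.05. Of the 8, 3 had an unadjusted limma p under 0.05, namely Clec4a3 -5.5 kb, the Clec4a2 TSS and Clec4d -1.7 kb. The differences, Cre+ minus control, ran from -0.53 to 0.72 with a median of 0.27, beside a median of -0.09 over all regions. With 2 libraries a genotype an exact permutation test cannot go below p = 0.333. A lower peak in a pool of cells can come from fewer cells with the open site or from a less open site in each cell, which cannot be told apart.

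The promoters of Clec4a1 and Clec4a3 had the highest fold enrichment of the 26 regions in every library but control replicate 3, in which the Clec4a3 promoter was highest and 5 of the 8 called regions lay above the Clec4a1 promoter. At the Clec4a1 TSS (chr6:122921379-122921896) the fold enrichment was 19.7 and 5.04 in control replicates 1 and 3, and 19.7 and 18.7 in Cre+ replicates 1 and 2. At the Clec4a3 TSS (chr6:122952165-122952849) it was 18.1 and 8.07, then 21.0 and 20.2. In both, before any scaling by library, 3 libraries lay close together and control replicate 3 lay far below them. These values were also expressed as a percentage of each library's median fold enrichment over regions called in all 4 libraries. The Clec4a1 TSS then stood at 136% and 66.9% in the controls and 130% and 156% in the Cre+ libraries. The Clec4a3 TSS stood at 125% and 107%, then 139% and 168%. On that scale control replicate 3 lay far below the other libraries only at Clec4a1. The log2 difference was 0.58 ± 0.29 (SE, n = 2 per genotype, limma adjusted p = 0.262) at Clec4a1 and 0.40 ± 0.22 (limma adjusted p = 0.289) at Clec4a3. Both values depended on the control libraries used and on the regions used for centring. With the centring over 15199 regions, control replicate 1 stood at 0.44 at Clec4a1 and 0.32 at Clec4a3. Both lay below the Cre+ means of 0.51 and 0.61. The fit without control replicate 3 was centred on 33268 regions instead. With that centring the difference was -0.27 at Clec4a1 and -0.04 at Clec4a3, the opposite direction. Without control replicate 1 it was 0.51 at Clec4a3 (limma adjusted p = 0.0709), and at Clec4a1 it was 1.09 with a limma adjusted p of 0.0016, a call made at 1.62% of all regions in that direction and 3.57% in the other. In every fit that leaves out a control library, that genotype is 1 library, which is assumed to vary like the Cre+ libraries. The summits of these promoters, at -216 bp from the Clec4a1 start and at -14 bp from a Clec4a3 start, lay in windows that aligned over 55 columns with 87.3% identity.

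Between Clec4a1 and Clec4a3 stood 2 further regions with a peak in at least 3 libraries, both intergenic. At Clec4a3 -5.5 kb (chr6:122946788-122947145) the fold enrichment was 7.07 and 6.15 in the controls and 17.0 and 10.9 in the Cre+ libraries. The genotypes did not overlap there, also after centring, an order seen at 22.3% of all regions called in all 4 libraries. The log2 difference was 0.67 ± 0.26 (limma adjusted p = 0.160), which fell to 0.30 without control replicate 1. By summit pileup, the number of tags over the summit, the genotypes did overlap, at 20.6% and 75.0% of the library median against 50.5% and 44.6%. At Clec4a3 -12.8 kb (chr6:122939453-122939977), which lies 5.09 kb past the end of Clec4a1, it was 3.57 in control replicate 1, not called in replicate 3, and 9.82 and 6.28 in the Cre+ libraries. The lowest of the 3 values was again that of the control. The weaker regions of this pair of genes included Clec4a1 +13.2 kb with 4.66 and 4.33 in the Cre+ libraries alone, and Clec4a3 -7.4 kb with 4.28 in Cre+ replicate 1. Clec4a1 -0.6 kb had 3.48 in Cre+ replicate 2.

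Clec4a2, the gene of the inhibitory receptor DCIR, had a promoter region (chr6:123122869-123123633) that reached 7.62 and 4.85 in the controls and 13.4 and 12.4 in the Cre+ libraries. Its summit lay in the 5′ UTR exon, 20 bp past a start. Both Cre+ values were above both control values, also after centring, an order seen at 22.3% of all regions called in all 4 libraries. The log2 difference of 0.72 ± 0.22 (95% interval 0.25 to 1.19, limma adjusted p = 0.0973) was the largest among the 8 regions. It was positive under all fits that were run, from 0.41 on summit pileup to 1.09 without centring. By pileup the genotypes overlapped, at 22.7% and 45.0% of the library median against 38.4% and 47.7%.

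The 3 regions of shared sequence had a peak in both Cre+ libraries and in at most 1 control library. At the Clec4b1 TSS (chr6:123049739-123050259), the promoter of DCAR, the fold enrichment was 4.38 in control replicate 1, not called in replicate 3, and 11.0 and 7.94 in the Cre+ libraries. At Clec4a2 -27.2 kb (chr6:123095137-123095779) no peak was called in the controls and the values in the Cre+ libraries were 8.60 and 8.77. At the Clec4n TSS (chr6:123229744-123229958), the promoter of Dectin-2, no peak was called in the controls and the values were 5.32 and 5.40. The pattern of the last 2 regions, both Cre+ libraries and neither control, held for 22.8% of all regions. That of the Clec4b1 TSS, all but control replicate 3, held for 25.5%. With 38048 peaks from each library other than control replicate 3, the Clec4b1 TSS was called in all 3 libraries, Clec4a2 -27.2 kb in Cre+ replicate 2 and the Clec4n TSS in none. The Cre+ values of Clec4a2 -27.2 kb lay between those of the Clec4b1 promoter it aligns with. No transcript of the annotated set used (NM and NR) starts at Clec4a2 -27.2 kb, and predicted transcripts were not searched. Reads were kept above a mapping quality of 30, which favours reads with 1 best place in the genome, and how many reads of these regions were lost to that filter was not tested. The stretch of 200 bp before the start of Clec4b2, which aligned with the Clec4n window over 147 columns with 76.2% identity, had no promoter peak in any library.

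A fit that also took regions called in fewer libraries, leaving out missing values, could test 15 of the 26 regions. It called Clec4a3 -12.8 kb (log2 difference 1.24 ± 0.31, limma adjusted p = 0.0246) and the Clec4b1 TSS (1.20 ± 0.31, limma adjusted p = 0.0260) higher in the Cre+ libraries, and no region lower. It called 7.25% of all tested regions higher and 0.357% lower. Both called regions rested on control replicate 1 alone. With control replicate 3 left out of the merge as well, all 15 regions were complete and the differences were 0.91 and 0.87. At these regions both fits used the same peak values. The differences changed because the libraries were centred on 33268 regions instead of 15199. None of the 15 was then called, beside 2.28% of all regions called higher and 1.28% lower.

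**Figure D2:**
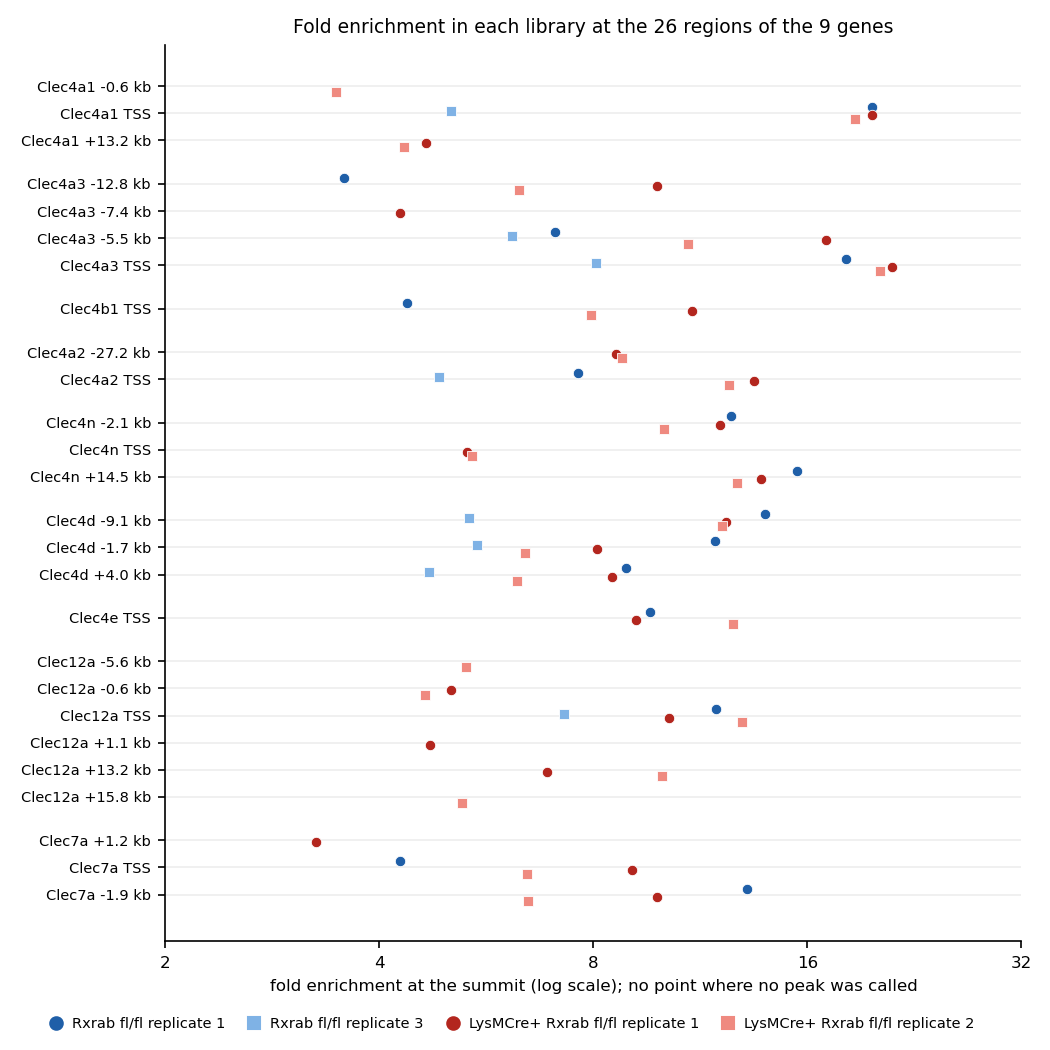
Fold enrichment at the summit (horizontal axis, log scale) in each of the 4 libraries at the 26 regions, grouped by gene in the order of the chromosome. Each point is 1 library, and a library without a peak has no point. At Clec4a3 -5.5 kb and the TSS regions of Clec4a3 and Clec4a2 both Cre+ (LysMCre+) points lie to the right of both control points, and at the 3 Clec4d regions control replicate 1 lies furthest to the right.

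Toward the other end of the Clec4 stretch, Clec4n, Clec4d and Clec4e code for receptors that act through Fcer1g, and their strong regions lay mostly outside promoters. Clec4n had an intergenic region 2.1 kb upstream (chr6:123227400-123228076) with a fold enrichment of 12.5 in control replicate 1 and 12.1 and 10.1 in the Cre+ libraries. Its strongest region, Clec4n +14.5 kb in an intron (chr6:123244082-123244642), had 15.5, and 13.8 and 12.7. Neither was called in control replicate 3, and in both the value of replicate 1 was the highest. Its promoter, at 5.32 and 5.40, was the weakest of its 3 regions.

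Clec4d was the only one of the 9 genes with all of its regions, here 3, called in all 4 libraries. At Clec4d -9.1 kb (chr6:123252725-123253232) the fold enrichment was 14.0 and 5.34 in the controls and 12.3 and 12.1 in the Cre+ libraries. At Clec4d -1.7 kb (chr6:123260263-123260620) it was 11.8 and 5.48, then 8.10 and 6.40. At Clec4d +4.0 kb, in an intron (chr6:123265866-123266307), it was 8.90 and 4.70, then 8.51 and 6.25. Set against each library's median fold enrichment over regions called in all 4, Clec4d -1.7 kb stood at 81.6% and 72.9% in the controls and 53.5% and 53.3% in the Cre+ libraries, and Clec4d +4.0 kb at 61.3% and 62.5%, then 56.2% and 52.0%. Both control libraries were thus above both Cre+ libraries at these 2 regions, an order seen at 32.9% of all regions, and at 22.3% in the other direction. The other direction held for Clec4a3 -5.5 kb, the Clec4a3 TSS, whose difference turned with the centring used without control replicate 3, and the Clec4a2 TSS. The log2 differences were 0.13 ± 0.23 (limma adjusted p = 0.758), -0.53 ± 0.21 (limma adjusted p = 0.165) and -0.20 ± 0.21 (limma adjusted p = 0.596) from the farthest upstream region to the intronic one. Without control replicate 3, in a fit centred on 33268 regions instead of 15199, they were -0.42, -0.95 and -0.52. With the centring over 15199 regions, control replicate 1 stood at -0.06, -0.29 and -0.71, above the Cre+ means of -0.14, -0.90 and -0.89.

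Fold enrichment is divided by the local background, and that background differed between the Clec4d regions. At Clec4d -9.1 kb it was 3.08 and 1.06 tags in the controls and 1.68 and 1.8 in the Cre+ libraries. At Clec4d -1.7 kb it was 5.92 and 2.1 tags in the controls and 3.32 and 3.06 in the Cre+ libraries, while the lowest background of the same libraries was 1.97, 1.06, 1.33 and 1.08. The summit pileup, which is not divided by it, was 81 and 16 in the controls and 34 and 25 in the Cre+ libraries. As a share of each library's median pileup this was 83.5% and 80.0% against 34.3% and 38.5%. On pileup, Clec4d -1.7 kb was called lower in the Cre+ libraries (log2 difference -1.18 ± 0.22, 95% interval -1.67 to -0.68, limma adjusted p = 0.0213). It was the only one of the 8 regions called on that measure, by which 5.08% of all regions were called lower and 2.41% higher. Clec4d +4.0 kb had 60.8% and 65.0% of the median pileup against 40.4% and 44.6%, with a log2 difference of -0.57 ± 0.22 (limma adjusted p = 0.107). Clec4d -9.1 kb had 57.7% and 50.0% against 32.3% and 50.8%, so that the genotypes overlapped. The order of the genotypes by pileup was without overlap, lower in the Cre+ libraries, at Clec4d -1.7 kb and +4.0 kb, as at 36.9% of all regions. It was without overlap in the other direction at the TSS regions of Clec4a1 and Clec4a3, as at 25.2%.

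**Figure D3:**
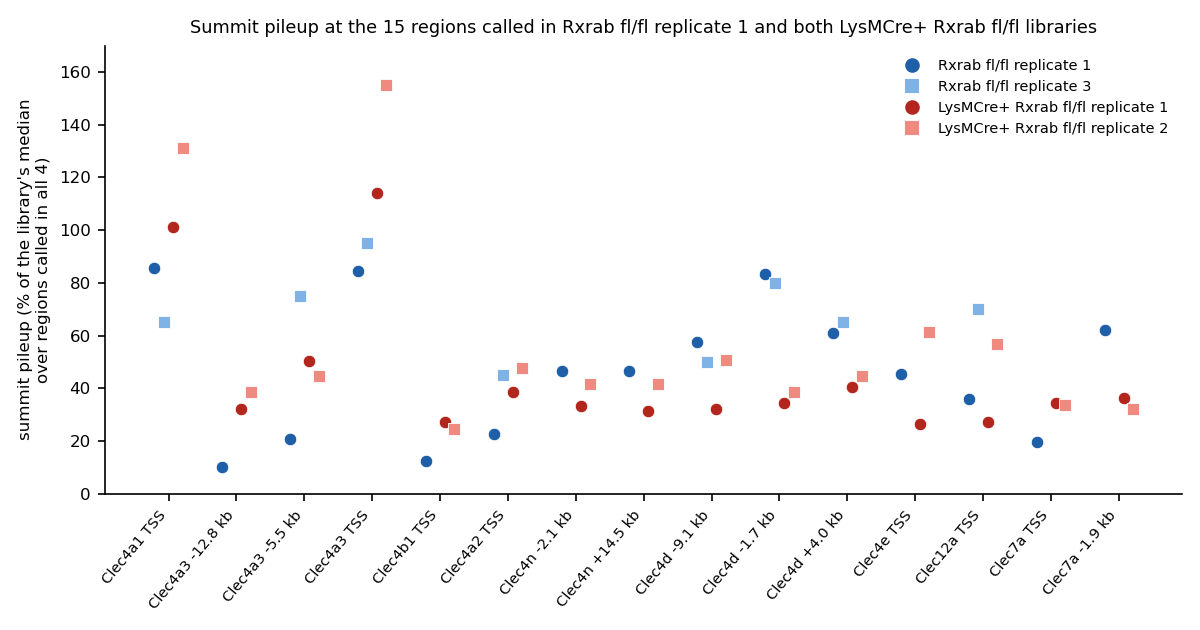
Summit pileup, as a percentage of the median pileup of the same library over regions called in all 4 libraries, at the 15 regions called in at least control replicate 1 and both Cre+ libraries. Each point is 1 library. At Clec4d -1.7 kb the control points lie at 83.5% and 80.0% and the Cre+ points at 34.3% and 38.5%.

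**Figure D4:**
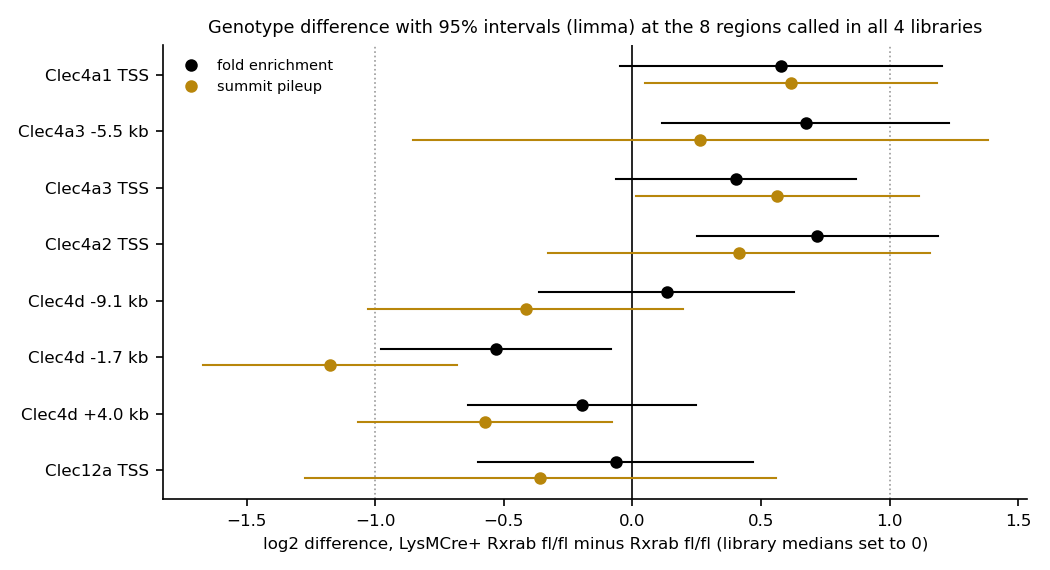
Log2 difference between genotypes (Cre+ minus control, each library centred on its median) at the 8 regions called in all 4 libraries, by fold enrichment in black and by summit pileup in gold. Bars are 95% intervals from limma with n = 2 libraries a genotype, and dotted lines mark a log2 difference of 1. Clec4d -1.7 kb is the only region whose pileup difference, -1.18, lies past a dotted line.

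Clec4e, the gene of Mincle, had 1 region, at its TSS (chr6:123289501-123290232). Its fold enrichment was 9.62 in control replicate 1, not called in replicate 3, and 9.18 and 12.6 in the Cre+ libraries. The control value lay between the other values.

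Clec12a, the gene of the inhibitory receptor MICL, had the most regions of the 9 genes. Its promoter (chr6:129349906-129350356) reached 11.9 and 7.28 in the controls and 10.2 and 12.9 in the Cre+ libraries, and the genotypes overlapped, with a log2 difference of -0.07 ± 0.25 (95% interval -0.60 to 0.47, limma adjusted p = 0.901). Its other 5 regions had peaks only in the Cre+ libraries. Both libraries held 2 of them, a pattern of 22.8% of all regions, Clec12a -0.6 kb (chr6:129349569-129349811) with 5.04 and 4.64, and the intronic Clec12a +13.2 kb (chr6:129363222-129363650) with 6.88 and 10.0. The remaining 3 were called in 1 library each, as were 26.9% of all regions, with values from 4.71 to 5.29. Those 5 regions had pileups of at most 22 tags where the pileup could be solved.

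Clec7a, the gene of Dectin-1, had its promoter and its upstream region ordered in opposite ways. At the TSS (chr6:129472658-129473073) the fold enrichment was 4.27 in control replicate 1 and 9.07 and 6.46 in the Cre+ libraries. At Clec7a -1.9 kb (chr6:129474476-129474911), its strongest region, it was 13.1 in control replicate 1 and 9.84 and 6.47 in the Cre+ libraries. Control replicate 3 had no peak at either, so the genotype was represented by 1 library. With that replicate left out, the log2 difference was 0.61 at the TSS and -0.95 upstream, and neither was called. The fit of regions called in at least 2 libraries used the same peak values here but was centred on other regions. In it the differences were 0.95 at the TSS and -0.61 upstream, and neither was called. Which of them was the larger thus depended on the centring. Clec7a +1.2 kb, in an intron, had 3.26 in Cre+ replicate 1.

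The other genes of these pathways were described by their promoters, defined as 1 kb upstream to 200 bp downstream of a start. Promoter counts of this kind also follow the number of peaks in each library, and the share of all promoters with a peak was not computed. Of 9 other C-type lectin genes of chromosome 6, 2, 1, 4 and 5 had a promoter peak in the 4 libraries. Clec4a4, a further paralogue of Clec4a2, had one only in the Cre+ libraries, with a fold enrichment of 12.9 and 9.62, and so had Clec5a with 9.46 and 6.96. Calls in both Cre+ libraries and neither control held for 22.8% of all regions, a share not computed for promoters alone. Clec2d was the only one of them in all 4 libraries, with 13.7 and 4.85, then 18.3 and 14.2 (log2 difference 0.62 ± 0.23, limma adjusted p = 0.151). All 10 genes of receptor signalling had a promoter peak in control replicate 1 and in both Cre+ libraries, and 7 had one in control replicate 3. The adaptor Fcer1g stood at 14.6 and 8.33, then 15.1 and 11.4 (log2 difference -0.12 ± 0.21, limma adjusted p = 0.767), and Card9, which relays Syk signals, at 18.3 and 10.9, then 21.3 and 19.9 (0.18 ± 0.21, limma adjusted p = 0.644). None of the 7 signalling promoters tested was called in either direction. Of 5 macrophage lectin genes on other chromosomes, 4, 3, 5 and 5 had a promoter peak, and none of the 3 tested was called. The mannose receptor gene Mrc1 had one only in the Cre+ libraries, the pattern of 22.8% of all regions, with 5.36 and 5.66.

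The summed promoter fold enrichment of the 9 genes was 75.6 and 25.2 in the controls and 99.0 and 96.6 in the Cre+ libraries. That of the small peritoneal macrophage list was 19.9 and 6.37, then 42.0 and 36.3, with Ccr2 not called in any library, and that of the neutrophil list was 14.0 and 0, then 23.0 and 16.1. The LPM and macrophage list stood at 71.6 and 37.4, then 76.3 and 73.4. The dendritic cell list stood at 18.67 and 7.738, then 25.8 and 16.03. The B cell list stood at 11.71 and 0, then 12.02 and 10.43. The T cell list stood at 5.414 and 0, then 10.98 and 5.319. In the dendritic, B and T cell lists Cre+ replicate 2 lay below control replicate 1, unlike in the other sums given here. A promoter without a peak adds 0 to such a sum, so the sums also follow the number of peaks in each library. Irf4 was the only promoter of the small peritoneal macrophage list that could be tested, with a log2 difference of 0.23 (limma adjusted p = 0.556). Zbtb46 was the only one of the dendritic cell list, with a log2 difference of -0.785 (limma adjusted p = 0.105). The part of these lists in the differences at the 9 genes was not tested.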

How the data were processed

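Peak lists of 4 ATAC-seq libraries of sorted LPMs were used, 2 for each genotype, grouped by the sample titles. Per the study's methods, the authors trimmed reads with cutadapt, aligned them to mm10 with Bowtie2, kept proper pairs above a mapping quality of 30, removed duplicates and chromosomes M, X and Y, and called peaks in each library with MACS2 2.1.1 (shift 100, extension 200 bp, q value 0.05). Summit positions depend on that shift. Samples that did not cluster with their group were excluded by the authors, so the spread may be understated. The deposited files give for each peak the fold enrichment ratio, −log10 of the p-value and q-value, and a score that was not used. Read counts, which the authors tested with DiffBind and edgeR, were not analysed here.

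Regions were placed on 45756 NM and NR transcripts of GRCm38.p6, the build of mm10. Whole-number pileups were solved from the deposited fold enrichment and −log10 p, within 0.01, for at least 97.98% of peaks of each library. Differences were fitted with limma 3.58.1 (R 4.3.3) on log2 fold enrichment, with Benjamini-Hochberg adjustment over all regions tested, after a check on simulated data. Windows were aligned by the Smith-Waterman method (match 2, mismatch -3, gap -5). All genes, lists and tests were chosen with earlier results of these data known. The text names for each gene the TSS region, the strongest region, those called in all libraries and those called in 1 genotype. Alternatives were other q values, equal peak numbers, summit windows, overlaps, transcript sets, scalings, and leaving out each library.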

Additional observations from a re-analysis of the deposited data

How the results depend on the processing

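No paired analysis was possible. The groups share only replicate number 1, and no label says that equal numbers mark a pair. Control stands for Rxrab fl/fl and Cre+ for LysMCre+ Rxrab fl/fl. The counts of regions of the 9 genes (26), of those called in all libraries (8) and of those called in the Cre+ libraries alone (5) were the same at a q value of 0.01, with summit windows, with 50 bp of overlap, with the nearest TSS only and with NM transcripts only. With equal numbers of peaks from the 4 libraries they were 12, 2 and 0, with 3 regions called in the controls alone. With equal numbers from the 3 libraries other than control replicate 3, they were 17, 15 and 0. Leaving out 1 library gave 8 to 15 regions in all libraries and 5 to 12 in the Cre+ libraries alone.

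Among regions of the 9 genes, limma called 2 higher when regions in at least 2 libraries were used and 1 lower on summit pileup. Leaving out 1 library gave 0 to 1 higher, the 1 being the Clec4a1 TSS without control replicate 1. Over all regions the calls, 6 higher and 7 lower, became 365 and 771 on summit pileup, 0 and 0 without centring (801 had an unadjusted p under 0.05), 61 and 76 with a mean-variance trend, 2580 and 127 with regions in at least 2 libraries, and 9 and 2 with quantile normalization. They were 6 and 7 at a q value of 0.01, with summit windows and by adjusted p alone. Leaving out 1 library gave 3 to 757 higher and 9 to 543 lower, with the 757 found without control replicate 3 and the 543 without control replicate 1. Without centring the median difference of all regions moved from -0.0874 to 0.281.

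Of 88 values for the 8 regions called in all libraries, 8 changed sign. Clec4d -9.1 kb was -0.415 on pileup, and Clec4d +4.0 kb and the Clec12a TSS were 0.173 and 0.303 without centring. Leaving out 1 library gave -0.266 to 1.09 at the Clec4a1 TSS, -0.041 to 0.544 at the Clec4a3 TSS, -0.42 to 0.354 at Clec4d -9.1 kb and -0.4 to 0.273 at the Clec12a TSS. The fit without control replicate 3 was centred on 33268 regions instead of 15199, and the signs at the Clec4a1 and Clec4a3 TSS changed with that centring. Other causes were not tested. A peak that was not called gives no value, and the lowest solved pileup behind a peak of the 9 genes was 9 tags, so a missing call does not show that a site was inaccessible.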
